A study of Mus musculus with 6 samples.

Results

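The genes described here are 36 genes of motile cilia and of ependymal cells, taken by symbol from a fixed list among the 55401 genes of the deposited table. They were chosen by their known roles and with the genotype differences in counts of these same 6 libraries already in view. Their genotype values and their shares within each group are therefore a description and not a test. The libraries are RNA of microglia isolated from spinal cords with CD11b-coated beads, from untreated animals aged 7 months. One group was non-transgenic (NTg, C57BL/6), with replicates numbered 7, 9 and 11 in the sample titles. The other was heterozygous for a knock-in of human ATXN2 with the Q33 repeat together with human TDP-43 (ATXN2-Q33;TDP-43, below also the mutants), with replicates 8, 10 and 12. Each library pooled 3 spinal cords and each line had 9 animals, so a library value is an average over animals. What drives the human alleles, and in which cells, is not given in the sources used here.

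Motile cilia are whip-like cell extensions that beat. Their core, the axoneme, is a ring of doublet microtubules around a central pair, bent by dynein motor arms and coordinated by radial spokes and the projections of the central pair. In the spinal cord they are known from the ependymal cells that line the central canal, where they move cerebrospinal fluid. The transcription factor Foxj1, together with factors of the RFX family, is known to switch on the genes of the motile axoneme. Microglia, the resident macrophages of nervous tissue, are not known to carry motile cilia.

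The libraries held 12553570 to 22854628 counts. Defining microglial genes were abundant, with Csf1r, the receptor of a macrophage growth factor, at 3493 to 5013 CPM (counts relative to library size, with sizes scaled by the TMM method). Transcripts of marker genes of other cell types were also present, at levels that differed between libraries and are given beside the results they touch. Where libraries differ in such genes, fewer cells of a type and less RNA per cell cannot be told apart.

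The sequences upstream of the starts of the 36 genes were searched for letters that the known regulators bind. Whether shared regulation has a part in the library differences described below was not tested. RefSeq windows on GRCm38.p6, 250 bases before to 50 bases after a start, were matched by symbol for 30 of the 36 genes, as 31 windows. Both strands were searched. The letters GTTGCCA, the core arm of the X-box of RFX factors, were in 7 of the 31 windows and in 4.38% of all 32851 windows. The letters GTAAACA, a core of forkhead factors such as Foxj1, were in 4 windows and in 3.65% of all windows. Either set was in 10 of the 31 windows and in 7.86% of all windows. One strict form of the X-box, GTTNCC and GGNAAC with 2 bases between them, was in 0 of the 31 windows and in 0.451% of all. X-boxes with other spacing or other letters were not searched, apart from the pair given next, so the 0 does not cover them. A looser pair of arms, GTTGC and GGCAAC with 3 bases between them, was searched only after the Hydin and Cfap44 windows had been read, and it overlaps the core arm. It was in 2 of the 31 windows, those of Hydin and Cfap44 read beforehand, and in 0.149% of all windows. Nothing is read from these shares. A match describes letters and no binding was measured. The 4 genes below are those with the highest mean CPM among the genes given in full that held a match. For each, the 250 bases before the start are printed in the direction of transcription, with the matches in capitals.
Hydin (chr8:110266727-110266976, strand +): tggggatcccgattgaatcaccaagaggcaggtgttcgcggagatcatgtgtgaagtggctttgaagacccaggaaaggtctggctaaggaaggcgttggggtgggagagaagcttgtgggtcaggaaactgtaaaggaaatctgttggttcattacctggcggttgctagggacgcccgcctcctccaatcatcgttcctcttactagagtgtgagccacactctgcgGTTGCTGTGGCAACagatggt
Cfap44 (chr16:44394549-44394798, strand +): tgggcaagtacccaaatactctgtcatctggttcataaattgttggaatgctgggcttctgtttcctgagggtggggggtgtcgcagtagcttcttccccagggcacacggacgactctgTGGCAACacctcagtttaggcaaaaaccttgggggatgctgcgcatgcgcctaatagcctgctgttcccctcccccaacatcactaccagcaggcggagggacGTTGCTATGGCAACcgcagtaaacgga
Cfap43 (chr19:47837362-47837611, strand -): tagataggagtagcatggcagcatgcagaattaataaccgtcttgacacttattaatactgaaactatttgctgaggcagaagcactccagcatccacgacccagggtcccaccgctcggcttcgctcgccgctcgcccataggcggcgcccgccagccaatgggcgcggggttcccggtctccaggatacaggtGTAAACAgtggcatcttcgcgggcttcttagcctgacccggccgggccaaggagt
Ak7 (chr12:105705732-105705981, strand +): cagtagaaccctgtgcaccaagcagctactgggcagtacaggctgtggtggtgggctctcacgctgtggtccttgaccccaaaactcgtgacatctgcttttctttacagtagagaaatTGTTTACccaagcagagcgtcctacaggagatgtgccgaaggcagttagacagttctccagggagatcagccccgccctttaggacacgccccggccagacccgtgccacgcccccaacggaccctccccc
In Hydin the core arm began 14 bases before the start, and in Cfap44 there were copies 130 and 20 bases before it. In both genes the copy near the start lay within the looser pair. In Cfap43 and Ak7 the capitals mark the forkhead letters, 55 and 131 bases before the start. The Cfap43 window is upstream of a RefSeq start only. It lies within the counted gene, which spans 47736857 to 47919287, and not before the gene's outer end.

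All 36 genes had at least 1 count in every library, at low levels. Their counts summed to 1298, 3396 and 2767 in NTg replicates 7, 9 and 11 and to 1998, 11667 and 5336 in ATXN2-Q33;TDP-43 replicates 8, 10 and 12, or 0.0103% to 0.0831% of a library. Mean levels over the 6 libraries ran from 0.628 CPM for Tekt4 to 19.7 CPM for Dnah6, with a median of 7.87 CPM, against a median of 10.7 CPM over the 16248 genes tested. These levels are not scaled by transcript length, and the exon lengths ran from 556 bases for Dynlrb2 to 18037 bases for Hydin. Per kilobase of exon, the highest mean levels were 5.41 CPM for Enkur, 4.19 CPM for Ccdc153, 3.80 CPM for Foxj1 and 3.48 CPM for Rsph1. The lowest were 0.314 CPM for Tekt4 and 0.269 CPM for Spag17, and the median was 1.26 CPM. The filter on low counts passed 34 of the 36 genes. Tekt4, with 63 counts in all, and Tmem212 did not pass.

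**Figure D1:**
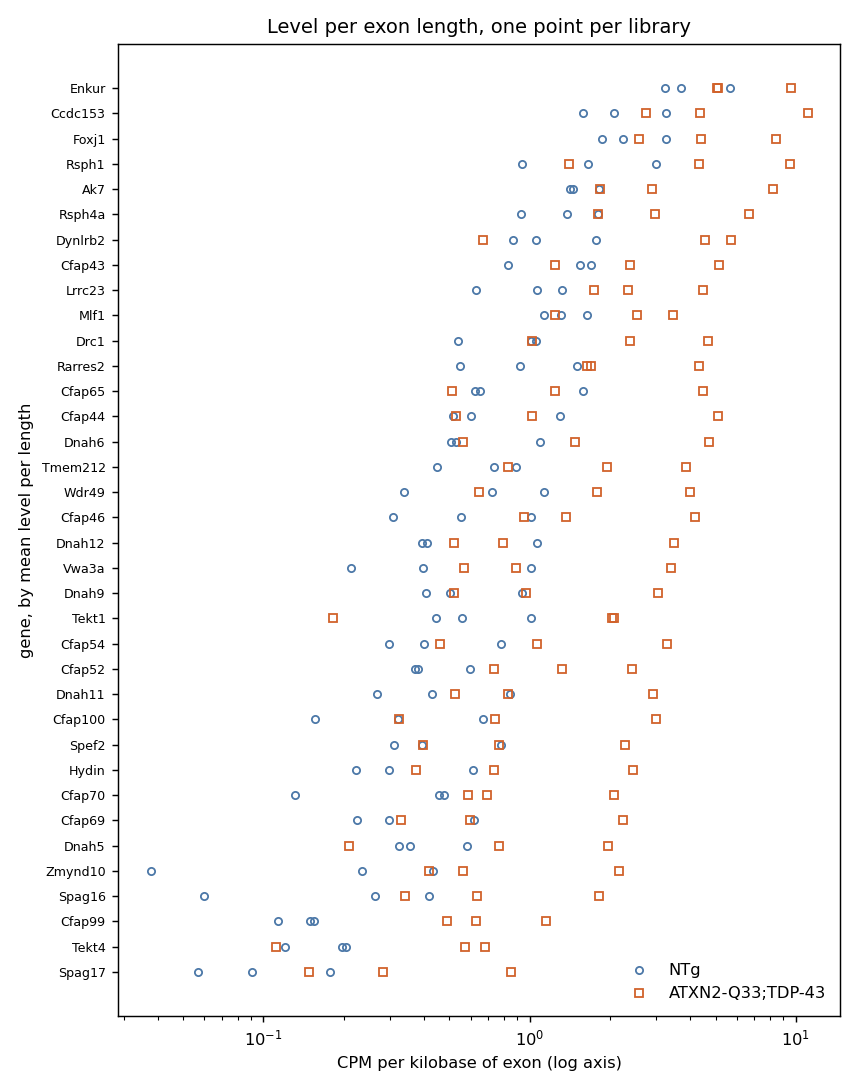
Each row is a gene and each point a library, with the level in CPM per kilobase of exon on a log axis (circles NTg, squares ATXN2-Q33;TDP-43). In nearly every row the rightmost point is the square of replicate 10, and the mean levels span 0.269 to 5.41 CPM per kilobase.

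Within each genotype the 36 genes varied as a block, and the same library was highest for nearly all of them. Summed over the 36 genes, NTg replicate 7 had 105 CPM, replicate 9 had 224 CPM and replicate 11 had 126 CPM. In the mutants it reached 148 CPM in replicate 8, 792 CPM in replicate 10 and 277 CPM in replicate 12. Replicate 10 was the highest mutant library and replicate 9 the highest NTg library, and the sum of replicate 9 lay above that of mutant replicate 8. The mean sum was 151 ± 63.6 CPM for NTg against 406 ± 340.4 CPM for the mutants (SD, n = 3 pools in each group), so the spread among the mutants was larger than the difference between the means. The ratio of the means was 2.68.

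Gene by gene, replicate 10 was the highest of the 3 mutants for 35 of the 36 genes and replicate 9 the highest of the 3 NTg libraries for 33. Of the 34 tested genes these were 33 and 33, and 32 had both. Over all genes tested, replicate 10 was the highest mutant for 37.6%, replicate 9 the highest NTg library for 33.7%, and both for 20.5%. The order 10, 12, 8 in the mutants was seen for 34 of the 36 genes (32 of the 34 tested) and for 16.4% of all genes tested. The exceptions in the mutants were Tekt1, at 3.38 CPM in replicate 12 and 3.32 CPM in replicate 10, and Cfap99, where replicate 8 stood above replicate 12. In NTg the exceptions were Enkur, highest in replicate 7, and the 2 genes that failed the filter, Tekt4 and Tmem212, highest in replicate 11. Replicate 10 carried most of the genotype difference known when the genes were chosen. That choice favours genes high in replicate 10, so its shares here and in the ratios below are a description.

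**Figure D2:**
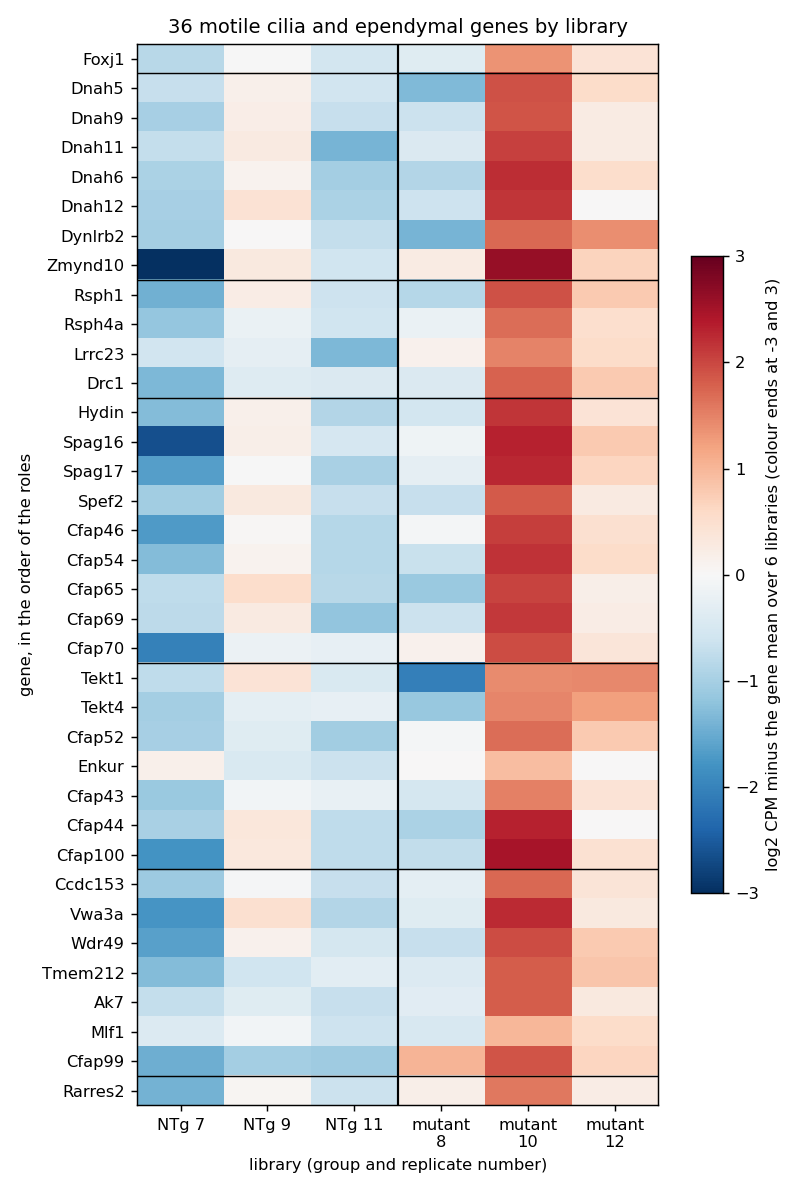
Rows are the 36 genes in the order of their roles and columns the 6 libraries, with colour giving log2 CPM minus the gene's mean over the libraries. The column of mutant replicate 10 is red in every row, that of mutant replicate 12 is mostly pale red, and NTg replicate 7 is blue in all rows but Enkur.

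A step up in replicates 10 and 9 was shared by nearly all the genes, and its size varied between them. Replicate 10 stood at a median of 3.39 times the mean of replicates 8 and 12, with a range from 1.81 for Tekt1 to 6.55 for Cfap44. The median over all genes tested was 1.003. The ratio was above 2 for 31 of the 34 tested genes and for 10.2% of all genes tested. Replicate 9 stood at a median of 2.05 times the mean of replicates 7 and 11, with a range from 0.834 for Enkur to 3.33 for Vwa3a, against a median of 0.991 over all genes. That ratio was above 1.5 for 28 of the 34 tested genes and for 12.8% of all genes tested. The make-up of the group of genes was alike between libraries. Across the 34 tested genes, log2 CPM of any pair of libraries had a Pearson r between 0.804 and 0.963. The lower values were for pairs that include replicate 7 or 8. Each gene has the same length in both libraries of a pair, which by itself tends to raise r, so r is a description only.

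**Figure D3:**
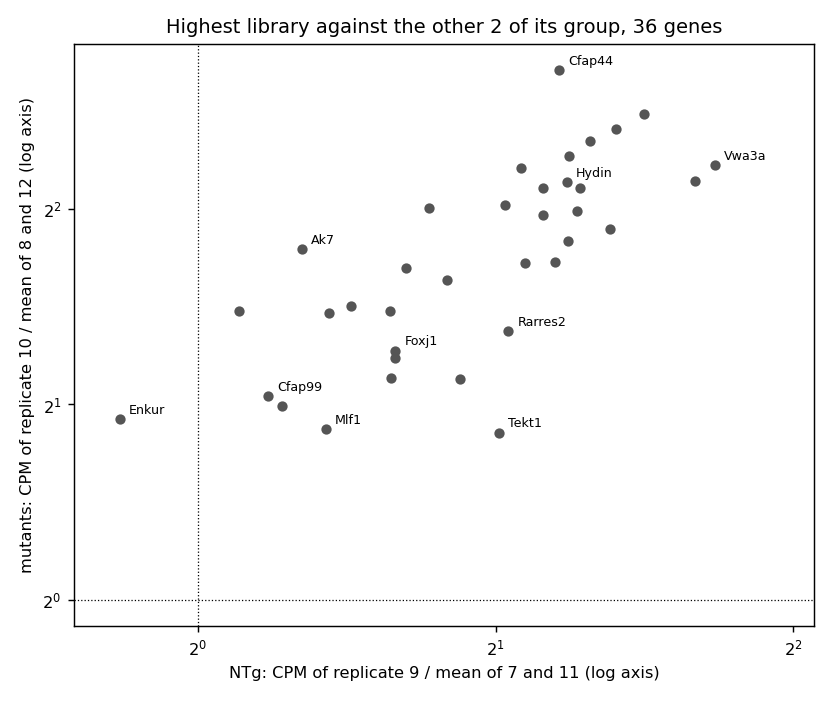
Each point is a gene, with the ratio of NTg replicate 9 to the mean of replicates 7 and 11 on the horizontal log axis and the ratio of mutant replicate 10 to the mean of replicates 8 and 12 on the vertical log axis. All 36 points lie above 1 on the vertical axis, and Enkur alone lies below 1 on the horizontal one, at 0.834.

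Markers of other cell types also differed between the libraries, some in the order of the cilia genes and some in another. The oligodendrocyte list (10 genes, 9 tested) summed to 186, 1676 and 448 CPM across NTg replicates 7, 9 and 11 and to 360, 1172 and 170 CPM in mutant replicates 8, 10 and 12. The endothelial list summed to 275, 630 and 334 CPM and to 396, 650 and 269 CPM in the same order. In these lists replicates 9 and 10 were the highest of their groups for 9 of 9 and 10 of 10 tested genes, as for the cilia genes. Their NTg sums had the order 9, 11, 7 of the cilia sum. Replicate 12, second among the mutants in the cilia genes, was the lowest mutant in both sums. The astrocyte markers summed to 105, 125 and 128 CPM over NTg replicates 7, 9 and 11 and to 115, 181 and 145 CPM over mutant replicates 8, 10 and 12, so the mutants had the order 10, 12, 8 of the cilia genes. Within that list Aqp4, a water channel of astrocytes and ependymal cells, stood at 5.27, 11.3 and 8.31 CPM in replicates 8, 10 and 12, and Slc1a3, a glutamate transporter and the most abundant of the list, at 64.4, 77.1 and 93.5 CPM, highest in replicate 12. Neutrophil markers were 640, 168 and 403 CPM for NTg and 1674, 1080 and 56.0 CPM for the mutants, highest in replicate 8. Fibroblast and neuron markers were also highest in replicate 8. The 10 microglial markers summed to 13960, 12590 and 15870 CPM for NTg and 13830, 11230 and 16290 CPM for the mutants, and replicates 9 and 10 were the lowest of their groups. The part of these other transcripts in the cilia values was not tested.

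**Figure D4:**
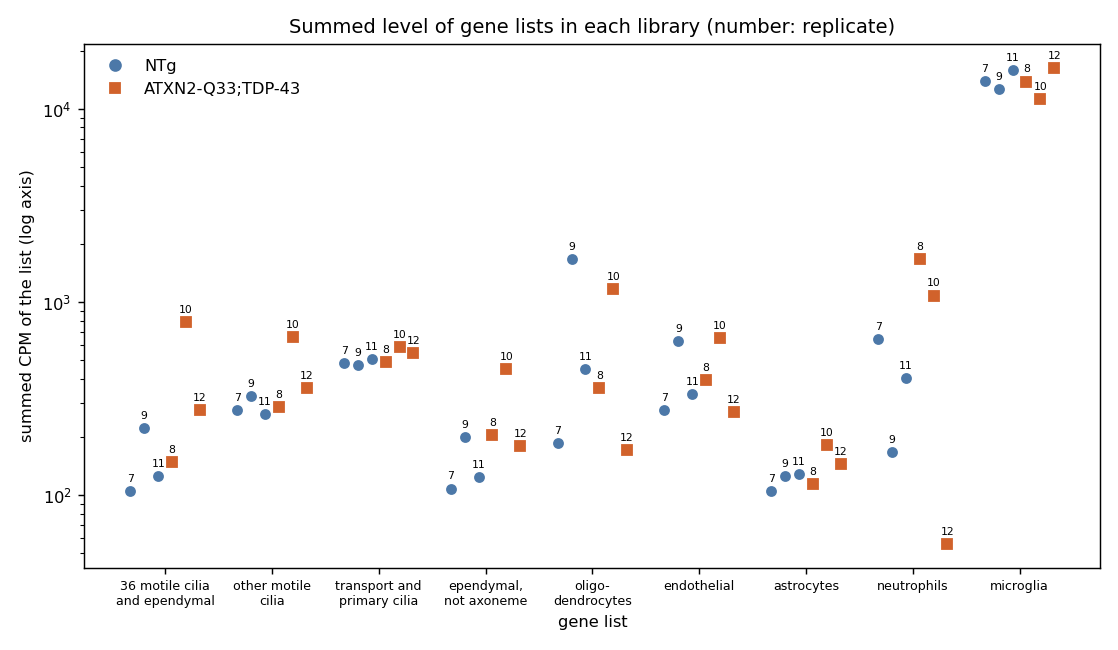
Summed CPM of each gene list on a log axis, with 1 point per library numbered by replicate (circles NTg, squares ATXN2-Q33;TDP-43). Replicate 10 is highest in the 36 cilia and ependymal genes at 792 CPM, while replicate 9 is highest in the oligodendrocyte list at 1676 CPM and replicate 12 lowest, at 170 CPM.

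Foxj1, the transcription factor of motile cilia (ENSMUSG00000034227, mm10 chromosome 11, 116330704 to 116335399), measured 4.91, 8.56 and 5.90 CPM across NTg replicates 7, 9 and 11. It measured 6.75, 22.1 and 11.5 CPM in mutant replicates 8, 10 and 12. Replicate 8 lay below the highest NTg library, so the groups overlapped. The log2 fold change, ATXN2-Q33;TDP-43 minus NTg, was 1.06 (SE 0.44, 95% interval 0.03 to 2.09), and 0.50 without replicate 10.

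The dynein arms hold the motors. Of 5 heavy chains, Dnah5, Dnah9 and Dnah11 belong to the outer arms, and Dnah6 and Dnah12 to the inner arms. Dnah6 (mm10 chromosome 6, 73017606 to 73221651) had the highest mean CPM of the 36 genes. It measured 7.01, 14.6 and 6.72 CPM across NTg replicates 7, 9 and 11 and 7.42, 62.6 and 19.6 CPM in mutant replicates 8, 10 and 12. Dnah9 (mm10 chromosome 11, 65831282 to 66168551) measured 6.52, 14.9 and 8.03 CPM and then 8.31, 48.4 and 15.5 CPM. For both genes replicate 8 was close to the lower NTg libraries and replicate 10 far above all others. Dnah5 and Dnah12 had values of 3.26 and 6.23 CPM in replicate 8, within or below the NTg range, against 30.7 and 42.0 CPM in replicate 10. Dynlrb2, a dynein light chain, had 6, 15 and 13 counts in NTg and 5, 47 and 49 counts in the mutants. Zmynd10, needed to assemble dynein arms in the cytoplasm, had 1, 14 and 11 counts in NTg and 12, 68 and 23 in the mutants. The log2 fold changes of these 7 genes ran from 1.23 for Dnah5 to 2.12 for Zmynd10, with a median of 1.48.

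Radial spokes carry signals from the central pair to the dyneins, and the nexin link joins neighbouring doublets. Rsph4a, of the spoke head (mm10 chromosome 10, 33905111 to 33916021), measured 3.38, 6.588 and 5.04 CPM across NTg replicates 7, 9 and 11 and 6.602, 24.3 and 10.8 CPM in mutant replicates 8, 10 and 12. The lowest mutant and highest NTg library were nearly equal, and the groups overlapped when CPM were taken on plain library totals. Drc1, of the nexin-dynein regulatory complex (mm10 chromosome 5, 30281388 to 30366695), measured 1.45, 2.83 and 2.72 CPM and then 2.74, 12.6 and 6.39 CPM, with replicate 8 inside the NTg range. Lrrc23, a spoke protein (mm10 chromosome 6, 124769863 to 124779727), measured 1.85, 2.31 and 1.09 CPM for NTg and 3.04, 7.80 and 4.05 CPM for the mutants, with no overlap. Rsph1, also of the spoke head, ran from 1.29 to 4.08 CPM for NTg and from 1.93 to 13.1 CPM for the mutants. The 4 log2 fold changes lay between 1.45 and 1.62.

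The central apparatus was the largest set, with 9 genes. Cfap54 (mm10 chromosome 10, 92775619 to 93081618), a central pair component, measured 4.35, 11.4 and 5.86 CPM across NTg replicates 7, 9 and 11 and 6.75, 48.1 and 15.6 CPM in mutant replicates 8, 10 and 12. Hydin, a very large protein of a central pair projection and known from hydrocephalus in mice (ENSMUSG00000059854, mm10 chromosome 8, 110266977 to 110610253), measured 4.03, 11.1 and 5.36 CPM and then 6.75, 44.0 and 13.2 CPM. In both, NTg replicate 9 stood above mutant replicate 8 and below replicate 12. Cfap70 (mm10 chromosome 14, 20394193 to 20452226) measured 0.564, 2.04 and 1.95 CPM for NTg and 2.52, 8.89 and 2.96 CPM for the mutants, with no overlap. Spag16 and Spag17 were scarce in NTg replicate 7, with 5 and 6 counts. Log2 fold changes in this set ran from 1.13 for Cfap65 to 1.97 for Spag17, with a median of 1.65. Without replicate 10 the value of Cfap65 was -0.10.

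The next set holds genes of the doublet microtubules and of the tethers that hold the dyneins. Cfap44, of the tether complex (mm10 chromosome 16, 44394796 to 44482428), measured 4.35, 10.9 and 5.08 CPM across NTg replicates 7, 9 and 11 and 4.45, 42.8 and 8.62 CPM in mutant replicates 8, 10 and 12. Replicates 8 and 12 both lay within the NTg range, and without replicate 10 the log2 fold change went from 1.46 to -0.049. Cfap43, its partner (mm10 chromosome 19, 47736857 to 47919287), measured 5.88, 11.99 and 10.9 CPM and then 8.83, 36.4 and 16.8 CPM. It was the only one of the 36 genes whose exons overlap another gene on its strand, sharing 164 bases (2.32% of its exon length) with Itprip and 82 bases (1.16%) with Gm22240, and reads there count for each. Cfap52, inside the doublet (mm10 chromosome 11, 67924806 to 67965651), measured 0.886, 1.38 and 0.862 CPM for NTg and 1.71, 5.63 and 3.06 CPM for the mutants, with no overlap.

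Enkur, also placed inside the doublet, departed from the rest. It had the highest level per kilobase and measured 8.86, 5.80 and 5.04 CPM for NTg and 7.94, 15.1 and 7.95 CPM for the mutants. Its highest library was 2.99 times its lowest, the smallest such range of the 36 genes, against a median of 9.08. Its log2 fold change of 0.66 (SE 0.32) was the lowest of the 34. Tekt1, a tektin filament protein, had 9, 25 and 20 counts in NTg and 4, 49 and 65 counts in the mutants. Tekt4, another tektin, had 3, 6 and 9 counts and then 3, 20 and 22. In both, replicates 10 and 12 were alike.

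Among genes with other or little described roles, Ccdc153 (mm10 chromosome 9, 44240676 to 44247306), widely used as an ependymal marker, measured 3.22, 6.65 and 4.22 CPM across NTg replicates 7, 9 and 11 and 5.56, 22.6 and 8.93 CPM in mutant replicates 8, 10 and 12. Ak7, an adenylate kinase of cilia (mm10 chromosome 12, 105705976 to 105782447), measured 5.96, 7.71 and 6.13 CPM and then 7.71, 34.5 and 12.2 CPM. For Ak7 the highest NTg and the lowest mutant library were equal to 3 digits. Mlf1, a gene first known from leukaemia, varied little, from 1.95 to 2.83 CPM for NTg and from 2.15 to 5.97 CPM for the mutants. Vwa3a, Wdr49 and Tmem212 followed the order 10, 12, 8 in the mutants. Rarres2, which codes for the secreted chemoattractant chemerin and for no part of the cilium (ENSMUSG00000009281, mm10 chromosome 6, 48569696 to 48572789), measured 1.45, 4.02 and 2.45 CPM for NTg and 4.38, 11.5 and 4.52 CPM for the mutants. It was high in replicates 9 and 10 like the axonemal genes, and its groups did not overlap.

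Cfap99, named for cilia and flagella (ENSMUSG00000109572, mm10 chromosome 5, 34288600 to 34327327), was scarce, with 3, 5 and 7 counts in NTg replicates 7, 9 and 11 and 18, 36 and 20 counts in mutant replicates 8, 10 and 12. In CPM these were 0.242, 0.329 and 0.318, then 1.34, 2.44 and 1.04. NTg libraries were tightly grouped and replicate 9 was hardly above the others, while every mutant library was higher. Between the genotypes it differed by a log2 fold change of 2.42, the highest of the 34 (SE 0.57, 95% interval 1.13 to 3.70), and by 1.98 without replicate 10, where the median of the genes was 0.61. Set against the summed CPM of the other 35 genes in the same library, Cfap99 was higher in the mutants by 1.204 on the log2 scale, with a within-group SD of 0.66. Zmynd10 differed by 1.197 on that scale, with an SD of 0.997 and 1 count in replicate 7. At the other end stood Tekt1 at -0.62 (SD 0.93) and Enkur at -0.56 (SD 0.85). For 24 of the 36 genes the difference was within its own SD. These values come from the comparison on which the list was based and carry no test.

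Between the genotypes all 34 tested genes had a positive log2 fold change, with a median of 1.48. Of all 16248 genes tested, 52.0% were positive and the median was 0.01. The median SE of the 34 was 0.73, and the 95% interval lay above 0 for 12 of them. In edgeR (quasi-likelihood, p adjusted by Benjamini-Hochberg), 0 of the 34 passed an adjusted p of 0.05, as did 0% of all genes. An unadjusted p under 0.05 with a higher level in the mutants was reached by 12 of the 34 and by 1.40% of all genes. DESeq2 called 0 of the 34 (0.0308% of all genes called higher), with 22 at an unadjusted p under 0.05 (1.88% of all genes). The voom fit of limma also called 0 of the 34 (0% of all genes), with 4 at an unadjusted p under 0.05 (0.954% of all genes). The list was chosen with this comparison known, so nothing is read from these shares.

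**Figure D5:**
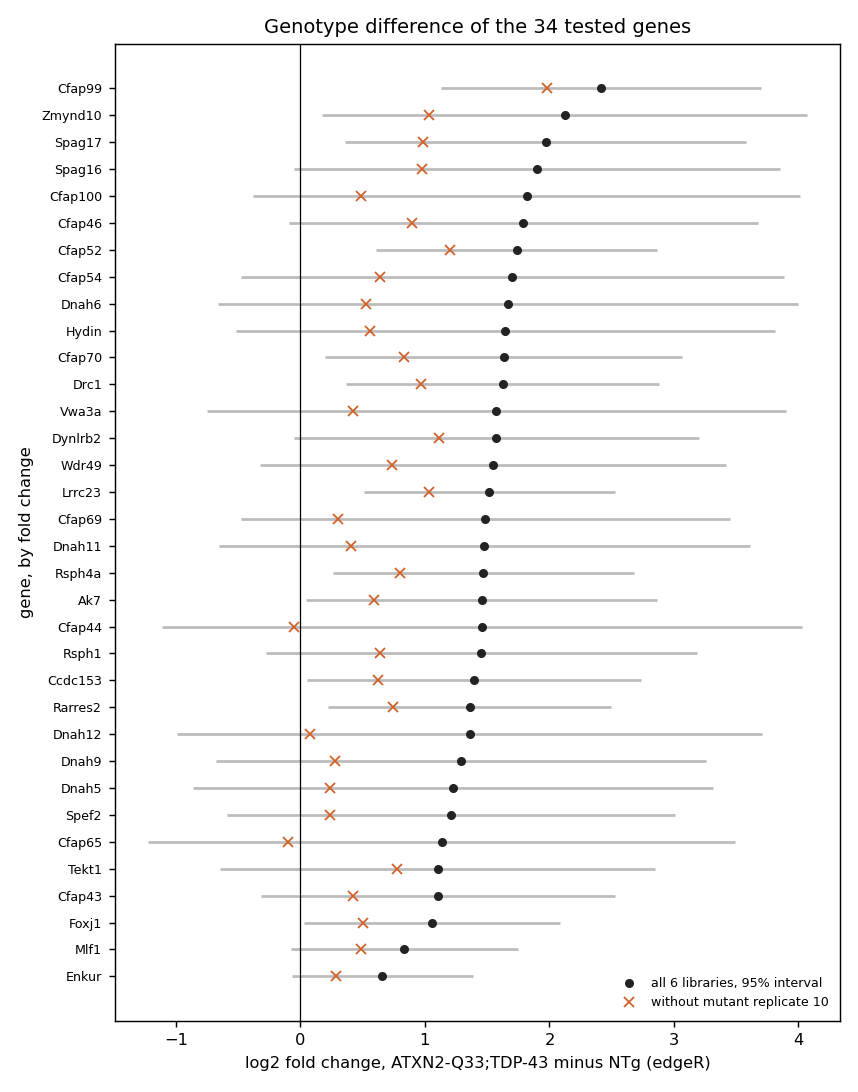
Log2 fold change of each of the 34 tested genes with its 95% interval (dots and bars, all 6 libraries) and the value without mutant replicate 10 (crosses). All dots lie right of 0, from 0.66 for Enkur to 2.42 for Cfap99, and the crosses lie nearer to 0, with Cfap44 at -0.049 and Cfap65 at -0.10.

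Most of the difference between the means came with replicate 10. Without it the median log2 fold change of the 34 genes was 0.61, and 32 of 34 stayed positive, against 49.8% of all genes tested in that fit. There 5 of the 34 had an unadjusted p under 0.05 with the mutants higher (0.949% of all genes), and 0 passed after adjustment. The ratio of the summed levels went from 2.68 to 1.41. There was no overlap between the pools of each genotype for 7 of the 34 tested genes, with the mutants higher, against 3.27% of all genes tested. These were Rsph4a, Lrrc23, Cfap70, Cfap52, Ak7, Cfap99 and Rarres2. With CPM on plain library totals, 5 genes were left, without Rsph4a and Ak7.

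The labels pair no libraries, but the sample codes alternate between the genotypes. Between neighbouring codes, replicate 8 was above replicate 7 for 29 of the 36 genes, replicate 10 above replicate 9 for 36, and replicate 12 above replicate 11 for 36. The same shares over all genes tested were not computed, so nothing is read from these counts. With neighbouring codes as a block, edgeR called 12 of the 34 genes higher (0.314% of all genes), and 29 had an unadjusted p under 0.05 (4.90% of all genes), at a median log2 fold change of 1.34. Among these were Cfap46 (log2 fold change 1.68, SE 0.18, edgeR adjusted p = 0.000173), Vwa3a (1.46, SE 0.21), Wdr49 (1.42, SE 0.22), Rsph4a (1.35, SE 0.21) and Foxj1 (0.97, SE 0.19). Cfap99 was not called there (adjusted p = 0.116). In counts of all genes tested, chi-square per degree of freedom was 9.16 between replicates 7 and 8, 11.9 between 9 and 10 and 6.65 between 11 and 12. It was also 11.9 between 7 and 9, and higher for all other pairs, up to 38.4 between 10 and 11. Whether neighbouring codes shared a day or a handling step is not given in the sources used here.

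In most other genes of motile cilia, outside the 36, replicate 10 was again the highest mutant. Of 88 listed, 75 were matched in the table and 60 tested, and 55 of the 60 had a positive log2 fold change (52.0% of all genes tested), with a median of 1.001. By edgeR 0 of the 60 passed an adjusted p of 0.05. With neighbouring codes as a block 3 did, against 71 of all 16248 genes tested. An unadjusted p under 0.05 with the mutants higher was reached by 12 (1.40% of all genes). Replicate 10 was the highest mutant for 56 (37.6% of all genes) and replicate 9 the highest NTg library for 45 (33.7%). The sums were 275, 328 and 264 CPM across NTg replicates 7, 9 and 11 and 286, 658 and 358 CPM in mutant replicates 8, 10 and 12. Without replicate 10 the median was 0.33, with 54 of 63 positive (49.8% of all genes). Spag6l, of the central apparatus, measured 2.17, 2.17 and 2.90 CPM for NTg and 4.08, 12.2 and 4.93 CPM for the mutants, and is named after its values were seen. In Cfap74 and Cfap20, the most abundant of the list, replicate 10 was also the highest mutant, but by a small step: Cfap74 ran from 79.9 to 96.1 CPM and Cfap20 from 24.0 to 29.7 CPM over all 6 libraries.

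Genes of intraflagellar transport and of primary cilia, which many cell types share, had sums within a narrower range. All 40 were tested, 34 had a positive log2 fold change (52.0% of all genes), and the median was 0.24. Without replicate 10 the median was 0.09, with 25 of 40 positive (49.8% of all genes). By edgeR 0 passed an adjusted p of 0.05 and 3 had an unadjusted p under 0.05 with the mutants higher (1.40% of all genes). Replicate 10 was the highest mutant for 26 of the 40 (37.6% of all genes) and replicate 9 the highest NTg library for 10 (33.7%). Their sums ran from 473 to 507 CPM over the NTg pools and from 489 to 587 CPM over the mutant pools. Ift88, a transport subunit named after its values were seen, measured 5.64, 15.1 and 9.87 CPM in mutant replicates 8, 10 and 12 and 6.12, 8.89 and 8.81 CPM across NTg replicates 7, 9 and 11. The 2 most abundant genes of the list showed no lead of replicate 10. Arl13b, a small GTPase of the ciliary membrane, ran from 71.1 to 92.2 CPM and Ift140, another transport subunit, from 45.7 to 52.6 CPM.

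Among 12 regulators of the making of many cilia in a cell, levels ran from abundant to undetected. E2f4, a transcription factor with wide roles in the cell cycle, was the most abundant, at 43.9 to 46.5 CPM across the NTg pools and 41.1 to 46.0 CPM across the mutant pools. Its relative E2f5 ran from 6.12 to 9.58 CPM and from 8.01 to 8.78 CPM. Gmnc had 0 to 12 counts, with all but 2 of its 14 counts in replicate 12, and Mcidas, Cdc20b and Foxn4 had at most 1 count in any library. Trp73, which acts upstream of Foxj1, had 8, 8 and 13 counts in NTg and 4, 43 and 9 counts in the mutants, high in replicate 10. Rfx3, of the RFX family, stood at 18.7 to 27.3 CPM for NTg and 19.9 to 27.9 CPM for the mutants. Rfx2 measured 4.83, 5.53 and 3.54 CPM and then 7.64, 10.7 and 5.19 CPM. Of the 12 genes 6 were tested and 0 passed an adjusted p of 0.05 in edgeR. An unadjusted p under 0.05 with the mutants higher was reached by 2, Rfx2 and Myb (1.40% of all genes). Myb is also known from blood progenitors. It measured 3.46, 2.77 and 3.13 CPM across NTg replicates 7, 9 and 11. In mutant replicates 8, 10 and 12 it measured 11.9, 10.6 and 3.43 CPM. Replicates 8 and 10 were also highest in neutrophil markers. In replicates 7, 9, 11 and 12 those markers summed to 640, 168, 403 and 56.0 CPM, and a link to Myb was not tested.

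Among 15 genes known from ependymal cells but not part of the axoneme, replicate 10 was mostly the highest mutant, and the order below it was mixed. Replicate 10 was the highest mutant for 13 (37.6% of all genes) and replicate 9 the highest NTg library for 9 (33.7%). Both held for 9 (20.5%). The list summed to 108, 200.5 and 124 CPM across NTg replicates 7, 9 and 11. In mutant replicates 8, 10 and 12 it summed to 205, 449 and 180 CPM, with replicate 12 the lowest mutant. Pltp, the most abundant, measured 34.35, 67.0 and 27.8 CPM in those mutant replicates. Hdc, the next, measured 64.0, 42.1 and 3.74 CPM, so neither had the order of the cilia genes. Hdc had the order 8, 10, 12 of the neutrophil markers. It added far more to the sum of replicate 8 than to that of replicate 12. Sox9, a transcription factor of ependymal cells and astrocytes, measured 5.56, 10.7 and 6.04 CPM across NTg replicates 7, 9 and 11 and 7.42, 39.7 and 18.2 CPM in mutant replicates 8, 10 and 12, the order of the cilia genes. Nnat, a small membrane protein, followed it with 9.66, 18.3 and 8.62 CPM and then 12.5, 50.6 and 31.3 CPM. Cd24a did not, at 11.9, 10.3 and 10.8 CPM and then 27.2, 44.8 and 10.2 CPM, with replicate 12 near the NTg values. Clu, Dbi, Tm4sf1, Gm973, Fam216b, Cdhr3, Mia and Calml4 also had the order 10, 12, 8 in the mutants, and Prom1 and Cdhr4 did not. That order was seen for 16.4% of all genes tested. Of these 15 genes 14 had a positive log2 fold change (52.0% of all genes), with a median of 1.22 and 0.39 without replicate 10. By edgeR 0 passed an adjusted p of 0.05, and 2 had an unadjusted p under 0.05 with the mutants higher (1.40% of all genes). With neighbouring codes as a block 2 passed an adjusted p of 0.05, against 71 of all 16248 genes tested. Choroid plexus, another ciliated lining known from the brain, had 1 of its 10 listed genes past the filter. This was Folr1, a folate receptor, with 5, 14 and 8 counts in NTg replicates 7, 9 and 11 and 16, 19 and 12 counts in mutant replicates 8, 10 and 12. Ttr, a defining product of that tissue, had 4 counts in all libraries together, and Clic6, Kcne2 and Kcnj13 had 0. Pkd2l1, a channel of the neurons that touch the central canal, had 0, 28 and 8 counts in NTg replicates 7, 9 and 11 and 0, 22 and 4 counts in mutant replicates 8, 10 and 12.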

How the data were processed

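RNA was sequenced from 6 libraries of spinal cord microglia, 3 per genotype. The kit was a stranded one for low input after ribosomal RNA depletion, per the labels' protocols. Per the file headers, the authors deposited raw counts of fragments per gene from featureCounts 1.6.1 (strand setting 2, GENCODE vM25 on mm10), where a fragment that overlaps several genes counts for each. The submitters' processing notes name Trim Galore 0.4.1, FastQC, TopHat2 and DESeq2. Exon lengths are the length column of the deposited table. Another 6 columns, of other samples, were not used.

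Symbols were matched by Ensembl identifier for 55141 of 55401 genes, and 224 of 237 list genes were found. Counts were filtered with filterByExpr (minimum count 10) and the test was edgeR's robust quasi-likelihood F test (version 4.0.16, R 4.3.3), with TMM scaling, no covariate and a threshold of 0.05. SE and intervals were derived from unshrunk coefficients and F. DESeq2 1.42.0 and limma 3.58.1 were alternatives. The edgeR step was tested on simulated data. Library pairs differed beyond sampling noise (chi-square per degree of freedom 6.65 to 38.4), so each library counted as 1 replicate. The low counts of single genes limit their precision.

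The members and lists were chosen with earlier results of these data known. The rule for genes given in full takes Foxj1, Rarres2, Ccdc153, Cfap99, the 2 with the highest mean CPM in each role, and those without overlap between groups. Other members are given more briefly, and of other lists some genes were named after their values were seen.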

Additional observations from a re-analysis of the deposited data

How the results depend on the processing

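No paired analysis was possible because the labels pair no libraries and give the groups different replicate numbers (7, 9, 11 and 8, 10, 12). A block on neighbouring codes assumes a pairing that they do not state. With it, 71 genes passed the threshold in place of 0, 12 of them among the cilia and ependymal genes. Called genes were 7 with DESeq2 and 6 without the filter on low counts. Leaving out 1 library gave 0 to 2 calls, with 2 without ATXN2-Q33;TDP-43 replicate 12, and none among the cilia and ependymal genes. Across those 6 fits the median log2 fold change ran from 0.61 to 1.90, the number of positive genes from 32 to 36 and the ratio of summed levels from 1.41 to 3.53. The lowest values were those without replicate 10. Leaving out the NTg replicates whose alignments are named combined (7 and 9), NTg rests on replicate 11, assumed to vary like the mutants, and the median was 1.67 with 0 calls. Cfap44 ran from -0.049 without replicate 10 to 1.97 without NTg replicate 9. For the 16 genes given in full, 215 of 222 alternatives kept the sign and the side of the threshold and 6, all with the block, passed it. The cause was not tested. Depth limits Cfap99, Zmynd10, Dynlrb2 and the tektins, which have few counts.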
